A study of Mus musculus with 11 samples.

Results

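Border-associated macrophages (BAMs) were picked out of single-nucleus RNA sequencing data by their transcripts, and 167 of the 189709 barcodes in the deposited matrices were members. A barcode had to hold at least 500 genes and less than 5% mitochondrial unique molecular identifiers (UMIs), limits that 186863 barcodes met. At least 2 of the 5 genes Mrc1, Stab1, Cd163, Lyve1 and F13a1 had to be detected, with Mrc1 or Stab1 among them. Barcodes with any UMI of the microglial genes Tmem119 or Siglech, of Ccr2, or of the fibroblast genes Dcn or Col1a2 were left out, as were those in which Gabra6, Fat2, Chn2 and Etv1, genes of cerebellar granule cells, together made up 0.2% or more of the UMIs. The members were thus chosen by measured levels of these genes, which are given below as a description and were not tested.

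Nuclei were sorted on a DNA dye from male mice aged 8 to 12 weeks, with the cerebellum and brainstem of a single hemisphere and the upper cervical cord pooled in each library. All mice carried loxP-flanked alleles of Il12rb2, a chain of the interleukin-12 receptor. NestinCre/+Il12rb2fl/fl mice carried in addition a Cre recombinase under the Nestin promoter, which is active in precursors of neurons and macroglia. BAMs are outside the intended deletion. The study mentions concerns that this Cre strain also acts outside the neural lineage, and found Il12rb2 kept in T and NK cells. It describes no such check in macrophages. Experimental autoimmune encephalomyelitis (EAE) had been induced with the MOG35-55 peptide in complete Freund's adjuvant plus pertussis toxin, and was sampled on day 10, in 4 Il12rb2fl/fl libraries (fl EAE) and 4 NestinCre/+Il12rb2fl/fl libraries (NestinCre EAE), against 3 libraries of non-immunized mice, 2 of Il12rb2fl/fl (fl naive) and 1 of NestinCre/+Il12rb2fl/fl (NestinCre naive). The first 3 EAE libraries of each genotype were sequenced in run 1, the fourth of each together with fl naive 2 in run 2, and the other naive libraries, fl naive 3 and NestinCre naive 2, in run 3, so that EAE and naive libraries met in run 2 alone.

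BAMs are the resident macrophages of the meninges, the perivascular spaces and the choroid plexus. Like microglia they derive largely from embryonic precursors and depend on signalling through the receptor encoded by Csf1r, but they sit outside the parenchyma, in contact with blood vessels and cerebrospinal fluid. They take up proteins, lipids and debris through scavenger receptors such as CD206, the product of Mrc1, and stabilin-1, the product of Stab1. In EAE the border compartments are where T cells entering the tissue first meet antigen-presenting cells that display peptides on MHC class II molecules.

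The libraries held 40761007 to 86063464 UMIs, with a median of 1928 to 3314 per barcode. Each held few BAMs. Replicates 1 to 4 of fl EAE held 12, 10, 16 and 16 members, those of NestinCre EAE 16, 12, 13 and 26, fl naive 2 and 3 held 18 and 11, and NestinCre naive 2 held 17. Of 185366 distinct barcode sequences, 4288 occurred in more than 1 library, with 47 to 140 shared by each pair of libraries. The barcodes of 8 members also occurred in another library, but none was a member in both. The study counts the EAE libraries as separate mice and describes the naive libraries of run 3 as from 1 mouse of each genotype. It describes the naive library of run 2 as an internal control for reproducibility and batch effects, left out of its own displays, and this is the library on which the EAE to naive fit below rests.

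In most members transcripts of macrophages made up a sizeable share of the UMIs, but in a group of mostly large nuclei they did not. In 21 of the 167 members, 20 genes that macrophages share (among them Csf1r, Ptprc and Spi1) made up less than 0.2% of the UMIs, with a median of 0.00676% against 0.908% in the other 146. These 21 nuclei had a median of 15591 UMIs against 2179.5, and 2.64% of their UMIs came from a list of neuronal genes, against 0.180%. Only 3 of them had a UMI of Dab2, an endocytic adaptor of macrophages that the rule did not use, against 120 of the 146. In 19 of the 21 just 2 marker genes were detected, and the median number of marker UMIs was 2, against 18. They supplied 53.9% of the 809031 UMIs of all members, and the largest alone held 105000. In 18 of the 21 at most 8 UMIs fell on the shared macrophage genes, with none in 9, against a median of 20.5 in the other 146. The remaining 3 held 14, 24 and 39 such UMIs among 23938, 40344 and 26971 in all, and that of 40344 UMIs also had 76 marker UMIs over 4 rule genes and 15 of Dab2.

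**Figure D1:**
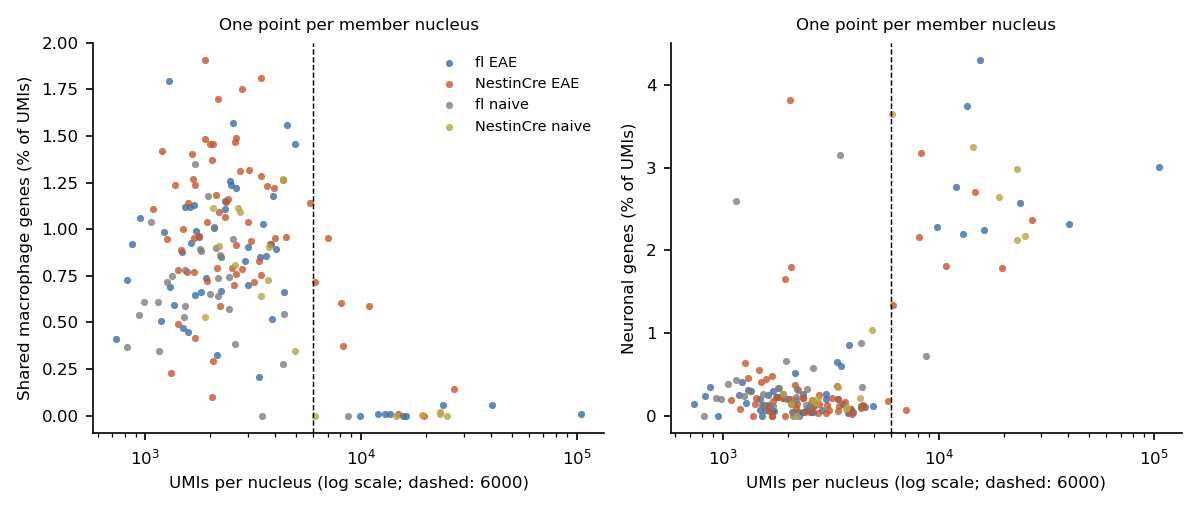
Each point is 1 of the 167 members, with its total UMIs on a log axis; the left panel gives the percent of UMIs from 20 shared macrophage genes and the right panel the percent from neuronal genes. The dashed line marks 6000 UMIs, and 19 of the 21 members with under 0.2% shared macrophage genes lie to its right.

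The data thus went against the label for 18 nuclei, while 3 held macrophage transcripts among many others. Because 19 of the 21 had over 6000 UMIs, results were also computed for the 143 members with at most 6000 UMIs, a limit that the study's methods also name. It had been planned as an alternative, and most results are given for it after the large nuclei had been seen. In these 143 nuclei F13a1, the A chain of coagulation factor XIII, was detected in 123, Mrc1 in 129, Stab1 in 131, the haemoglobin scavenger receptor Cd163 in 58 and the hyaluronan receptor Lyve1 in 16. Dab2 was detected in 115 and the transcription factor Maf in 110. The median nucleus held 2147 UMIs (734 to 5791) and 1457 genes. Of its UMIs 0.909% came from the shared macrophage genes and 1.26% from 26 further genes of border macrophages, whereas 0.176% were neuronal. For fibroblasts and for T and NK cells 2 of 10 markers each were detected, and the T cell genes Cd3e, Cd3d, Cd3g and Trac had no UMI. Oligodendrocyte markers made up 0.0824% to 0.489% of the UMIs per library and granule cell markers 0.0592% to 0.186%. Monocyte markers made up at most 0.0481%, with Ccr2 at 0 by the rule.

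At the edges of the rule, 36 of the 55 members with exactly 2 markers had at least 0.2% shared macrophage genes, and the median nucleus had 0.718%. Their pooled UMIs, of which 82.0% came from the other 19, had 0.171%, and those of the 446 barcodes that failed for having 1 marker had 0.167%. The 36 barcodes left out for a Ccr2 UMI and the 24 left out for Tmem119 or Siglech had 1.01% and 0.860%, also pooled. Those left out for granule cell genes (35) or fibroblast genes (2) had 0.137% and 0.180%, and the minimum of 500 genes removed none.

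Among the 106 members with at least 3 markers and at most 6000 UMIs, the rule genes ordered as F13a1, Mrc1, Stab1, Cd163 and Lyve1 by their medians over the 11 libraries, in UMIs per 1000000 UMIs of the class (CPM, which is not corrected for transcript length and so orders UMIs, not transcripts). The lowest, median and highest library had 3689, 4557 and 7041 CPM for F13a1, 1635, 2933 and 4805 CPM for Mrc1 and 1255, 1667 and 2889.6 CPM for Stab1. The same 3 values were 169.6, 562 and 1672 CPM for Cd163 and 0, 85.3 and 237 CPM for Lyve1. The libraries of F13a1 lay above all those of Stab1, while the ranges of Mrc1 overlapped with both. Within the 143 members, Mrc1 was at 2043, 4973, 3891 and 4414 CPM in the fl EAE libraries, at 1828, 1497, 1626 and 2387 CPM in those of NestinCre EAE and at 2625, 2296 and 3261 CPM in the naive ones. These values are a description and were not tested, since Mrc1 chose the members.

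The share of BAMs among nuclei was not distinguishable between the genotypes in EAE. Replicates 1 to 4 of fl EAE held 0.0770%, 0.0583%, 0.0901% and 0.0880%, with a mean of 0.0783% ± 0.0146 (SD, n = 4). Those of NestinCre EAE held 0.120%, 0.0702%, 0.09997% and 0.114%, with a mean of 0.101% ± 0.0221 (SD, n = 4), which gave a ratio of 1.29 (exact two-sided permutation p = 0.143, where 4 against 4 libraries allow no p below 0.0286). Within run 1 the ratio was also 1.29 (exact p = 0.3). Among the members with at most 6000 UMIs it was 1.35 (exact p = 0.114), and with at least 3 markers as well it was 1.08 (exact p = 0.657). Per 100 microglia there were 8.51 ± 1.72 BAMs in fl EAE and 8.49 ± 2.37 in NestinCre EAE (ratio 0.998, exact p = 1). The microglia rule, too, had taken large nuclei. At most 6000 UMIs in both classes gave 14.8 and 11.8 (ratio 0.797, exact p = 0.543), 3 or more markers gave 26.3 and 18.7 (0.711, exact p = 0.171), and both limits gave 27.2 and 18.3 (0.673, exact p = 0.143).

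No difference in the share was detected between EAE and naive libraries either. The 3 naive libraries held 0.0894%, 0.0653% and 0.115% BAMs (0.0898% ± 0.0247) and the 8 EAE libraries 0.0896% ± 0.0211, a ratio of 0.998 (exact p = 0.982). Leaving out 1 library at a time gave ratios of 0.878 to 1.16. Within run 2 the ratio was 1.13, with too few libraries for a test. These values are for all members, large nuclei included. Among members of at most 6000 UMIs NestinCre naive 2 held 0.0850%, and the ratio was 1.04 (exact p = 0.861). Shares of nuclei depend on every other class in the library, and with granule cell nuclei taken out of the denominator the ratio between genotypes was 1.14 and that between EAE and naive 1.08.

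**Figure D2:**
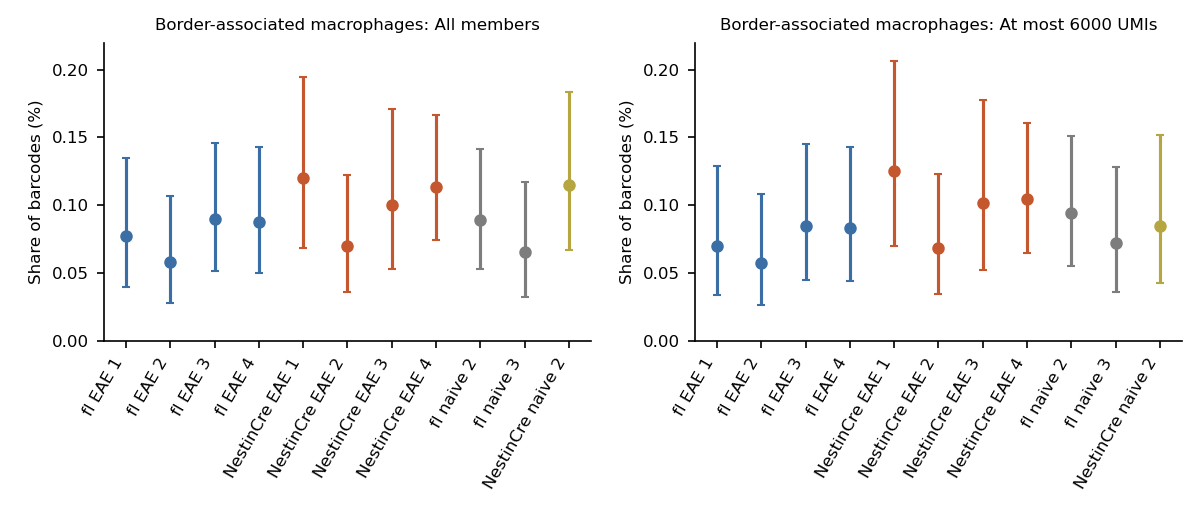
Percent of barcodes that were BAMs in each of the 11 libraries, for all members (left) and for members of at most 6000 UMIs (right), with bars for the exact 95% binomial interval, which covers counting error only. The intervals of the fl EAE, NestinCre EAE and naive libraries overlap.

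BAMs were next contrasted with microglia, the macrophages of the parenchyma, within each library. Microglia were barcodes under the same limits with at least 2 of Tmem119, Siglech, P2ry12, Gpr34 and Sall1 detected and no UMI of the BAM markers, Ccr2, Dcn or Col1a2, 2242 in all. Large nuclei were taken by that rule too, so the contrast is given for nuclei with at most 6000 UMIs and at least 3 markers of their class, 106 BAMs and 606 microglia in 11 libraries. Of 3759 genes tested with edgeR, 692 differed at an adjusted p under 0.05 (18.4%), 300 being higher in BAMs (7.98%) and 392 lower (10.4%). Among all members and all microglia it was 2085 of 11567 (18%, of which 6.09% higher and 11.9% lower), and 199 of the 300 and 116 of the 392 were called there as well. The smaller set is part of the larger, so this overlap is a description. Genes of either rule are not tested. As a description, P2ry12, the purinergic receptor that marks microglia, ran from 242 to 636 CPM in BAMs and from 712 to 1330.4 CPM in microglia, and the microglial transcription factor Sall1 had no UMI in BAMs against 548 in microglia.

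Genes of border macrophages that the rule had not used were compared next. Of the 26 on this list 12 passed the filter on low counts, which genes nearly absent from microglia passed through BAMs alone, so their count and median are a description. Of the 12, 10 were higher in BAMs (7.98% of all genes were) and 1 was lower (10.4%), with a median log2 fold change of 2.80 against -0.11 over all genes. Dab2 (chr15, 6329269 to 6470196 on GRCm39) had a lowest, median and highest library value of 897, 2032 and 5469 CPM in BAMs and of 0, 17.9 and 38.6 CPM in microglia, with no overlap between classes (log2 fold change 6.78 ± 0.26 SE, adjusted p = 1.94e-44). Rbpj (chr5, 53623494 to 53814704), the DNA-binding factor of Notch signalling, was at 3964, 6357 and 8419.8 CPM in BAMs and 115, 223 and 321 CPM in microglia (4.75 ± 0.18, adjusted p = 1.94e-44). For Ms4a7, a membrane protein of border macrophages, 114 UMIs fell in BAMs and 1 in microglia (adjusted p = 1.86e-29). Every library of BAMs was above every library of microglia for these 3 genes. Maf differed less, with 897, 1348 and 2178 CPM against 169, 419.9 and 809 CPM (1.56 ± 0.17, adjusted p = 5.44e-13). Slc40a1, which encodes the iron exporter ferroportin, was higher by 1.15 ± 0.38, adjusted p = 0.0194, a call that was lost without fl EAE 3 (adjusted p = 0.206), fl naive 2 (0.1), NestinCre EAE 1 (0.0951) or NestinCre EAE 3 (0.0541).

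Scavenging and lysosomal genes split between the classes. Of 25, 20 were tested, of which 10 were higher in BAMs and 3 lower (median 0.89), counts with the same limit of the filter. Over all genes 7.98% were higher and 10.4% lower. The scavenger receptor Colec12 was at 197, 759 and 2765 CPM in BAMs and 0, 83.3 and 209.5 CPM in microglia (3.68 ± 0.25, adjusted p = 3.53e-25), and Msr1, the class A scavenger receptor, at 212, 339 and 759.7 CPM with 6 UMIs in all microglia (5.94 ± 0.41, adjusted p = 1.85e-24). Apoe, a carrier of lipids, was at 549, 1039.7 and 1732 CPM against 133, 167 and 375 CPM (2.45 ± 0.20, adjusted p = 2.2e-20), and the cholesterol exporter Abca1 was higher by 1.72 ± 0.21. The lysosomal proteases Ctsb and Ctsc were higher by 1.35 ± 0.21 and 1.31 ± 0.19. By contrast the protease Ctss (-1.03 ± 0.21, adjusted p = 5.68e-05), the receptor tyrosine kinase Mertk, which takes up apoptotic cells (-0.79 ± 0.17, adjusted p = 0.000127), and the endocytic receptor Lrp1 (-1.02 ± 0.30, adjusted p = 0.00803, or 0.0511 without fl naive 2) were lower in BAMs. Of the 18 shared macrophage genes tested, 11 did not pass the test, Cybb, a subunit of the phagocyte oxidase, was higher (3.19 ± 0.38), and 6 were lower, Irf8 and Dock8 among them, against the same 7.98% and 10.4% of all genes.

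Beyond the border macrophage list, Pde7b, a cAMP phosphodiesterase, and Aoah, an enzyme that inactivates bacterial lipopolysaccharide, were higher in BAMs. Pde7b was at 321, 2417 and 4048 CPM in BAMs, with 12 UMIs in all microglia (7.64 ± 0.30, adjusted p = 6.6e-43). Aoah was at 512, 1603 and 2452 CPM, against 0, 0 and 64.7 CPM (6.20 ± 0.27, adjusted p = 5.1e-39). Igf1, insulin-like growth factor 1, had 65 UMIs in the 106 BAMs and 4 in the 606 microglia (adjusted p = 1.85e-21). The interferon-inducible genes Ifi203 and Mndal had 145 and 124 UMIs in BAMs and 3 each in microglia. For each of these 5 genes every BAM library lay above every microglia library. Genes were named from the lists or for a large change in this same contrast. Those nearly absent from microglia passed the filter through BAMs alone, so this separation is a description.

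Of 10 genes of microglial identity tested, 8 were lower in BAMs and none higher (median -2.87; 10.4% of all genes were lower), a description, since genes nearly absent from BAMs passed the filter through microglia alone. The fractalkine receptor Cx3cr1 was at 0, 72.7 and 197 CPM against 374, 911 and 1074 CPM (-3.23 ± 0.27, adjusted p = 3.7e-19). Nav3, a cytoskeletal protein outside the list, was at 0, 64.1 and 169.6 CPM against 2625, 3875 and 5833 CPM (-6.07 ± 0.27, adjusted p = 5.1e-39). Neither overlapped between classes, which is a description too. Of 17 macrophage transcription factors tested, against 7.98% of all genes higher and 10.4% lower, 4 were higher (Rbpj, Maf, Nfatc2 and Zeb2) and 4 lower (Mef2a, Mef2c and Smad3 among them, the last with an adjusted p of 0.0536 without fl EAE 3). Among 22 interferon-response genes, against the same shares, 5 were higher in BAMs, among them Iigp1, an interferon-induced GTPase (1.52 ± 0.30), and Oas2 (2.64 ± 0.38), while Irf8 was lower (-0.87 ± 0.27). None of the granule cell genes (5 tested) or oligodendrocyte genes (8 tested) passed the test between the classes.

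**Figure D3:**
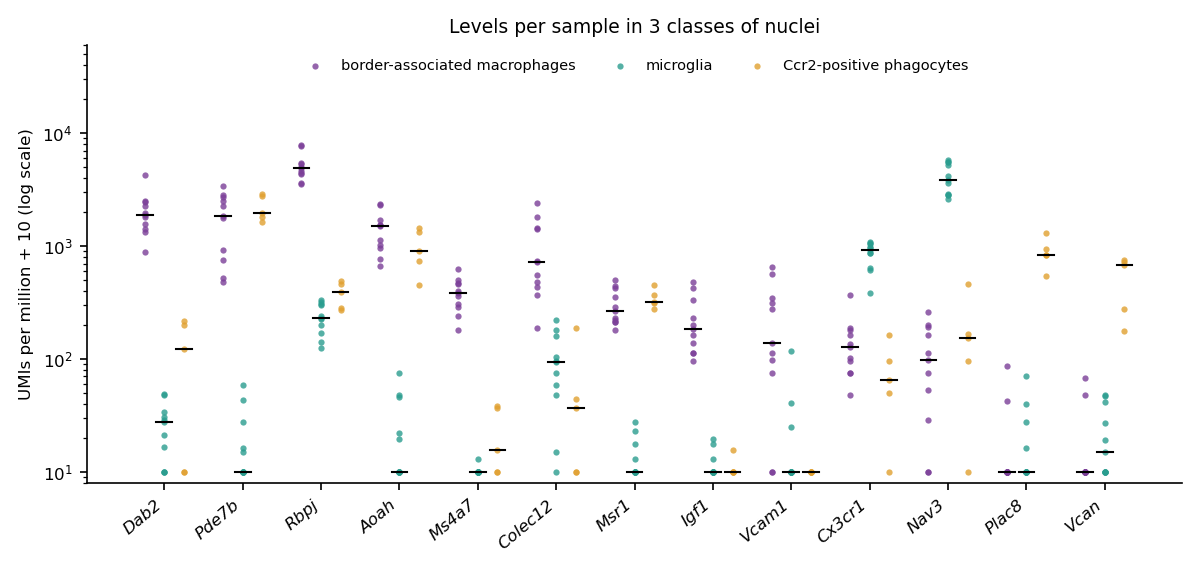
Levels of 13 genes outside the selection rules, as UMIs per 1000000 plus 10 on a log axis, in BAMs (11 libraries), microglia with at least 3 markers (11 libraries) and Ccr2-positive phagocytes (5 libraries), all with at most 6000 UMIs; each point is a library and each black line a median. Dab2, Pde7b and Rbpj are high in BAMs, Cx3cr1 and Nav3 in microglia, and Plac8 and Vcan in phagocytes.

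Infiltrating phagocytes share many transcripts with BAMs, and Ccr2, which chose between them, is a chemokine receptor of monocytes. Barcodes with a Ccr2 UMI, at least 2 of Lyz2, Itgam, Csf1r, Cybb and Fcgr1 and none of the T cell genes Skap1, Themis, Bcl11b and Cd3e numbered 180, and 5 EAE libraries, fl EAE 4 and NestinCre EAE 1 to 4, held at least 5 of both classes. Replicates 1 to 4 of fl EAE held 2, 0, 4 and 6 phagocytes and those of NestinCre EAE 78, 21, 63 and 5. The naive libraries held 1, 0 and 0. Whether the members included phagocytes whose Ccr2 went undetected was not tested. With at most 6000 UMIs these libraries held 72 BAMs and 167 phagocytes, and 378 of 3120 genes differed (12.1%), 224 being higher in BAMs (7.18%) and 154 lower (4.94%). Without NestinCre EAE 1 it was 238 genes. For all members it was 125 of 4202 (2.97%, of which 1.55% higher and 1.43% lower), and 28, 23 and 76 without NestinCre EAE 1, 3 and 4. Of the border macrophage list 13 genes were tested, 7 were higher (Rbpj, Dab2, Colec12, Maf, Hpgds, Ms4a7 and Siglec1) and Tgfbi was lower, with a median of 1.76 against 0.08 over all genes, again a description, since genes nearly absent from phagocytes passed the filter through BAMs alone. Siglec1 lost its call without NestinCre EAE 2 (adjusted p = 0.26) or 4 (0.121).

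Vcam1, an adhesion molecule bound by integrins of lymphocytes, was at 306, 335, 556, 265 and 648 CPM in the BAMs of these 5 libraries and had no UMI in any phagocyte (adjusted p = 2.63e-16). Pdgfc, a platelet-derived growth factor, was at 128, 849.7, 85.5, 681 and 611 CPM in BAMs with 1 UMI in phagocytes (adjusted p = 5.45e-20). Each library of BAMs thus stood above its phagocytes for both genes. That is a description, since genes nearly absent from phagocytes passed the filter through BAMs alone. Dab2 (3.46 ± 0.34, adjusted p = 6.15e-21), Colec12 (4.42 ± 0.48, adjusted p = 8.57e-18) and Mertk (2.16 ± 0.31, adjusted p = 1.87e-10) were higher in BAMs. So were the 3 chains of complement C1q, C1qa at 1.88 ± 0.48, C1qb at 2.00 ± 0.42 and C1qc at 2.42 ± 0.53, though C1qa had an adjusted p of 0.0536 without NestinCre EAE 3. Of 4 monocyte markers tested all were lower in BAMs (4.94% of all genes were), Plac8, Vcan and Fn1 among them, although Fn1 was not called without NestinCre EAE 1 (adjusted p = 0.664), 2 (0.22) or 3 (0.42). That count is a description, since genes nearly absent from BAMs passed the filter through phagocytes alone. Plac8 was at 825, 928, 1305, 820.2 and 537 CPM in phagocytes and at 0, 77.2, 0, 0 and 0 CPM in BAMs (adjusted p = 5.45e-20).

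Some genes of antigen presentation were lower in BAMs than in phagocytes, where 4.94% of all genes were. Of 7 MHC class II genes tested 3 were lower and none higher, H2-Ab1 at -2.07 ± 0.40, adjusted p = 6.78e-06, Cd74, the invariant chain, at -1.61 ± 0.32, adjusted p = 1.45e-05, and H2-Aa at -1.60 ± 0.43, adjusted p = 0.00254. Without NestinCre EAE 2, whose phagocytes had the highest Cd74 level, H2-Aa and Cd74 were not called (adjusted p = 0.303 and 0.053). Of 12 MHC class I genes 2 were lower, H2-D1 and H2-T23, and neither was called without NestinCre EAE 2 (adjusted p = 0.212 and 0.0537). Of 27 interferon-response genes 7 were lower (Samhd1, Mx1, Irf7, Gbp5, Trim30a, Gbp2 and Rnf213) and none higher, with a median of -0.75. Samhd1, Mx1 and Irf7 kept their calls without any 1 of the 5 libraries, while Gbp2, Gbp5, Trim30a and Rnf213 did not. Klra2, a receptor of the Ly49 family, was lower in BAMs as well (-1.74 ± 0.29, adjusted p = 1.47e-07).

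EAE was compared with the naive state in 1 fit of all 11 libraries with the run in the model. The contrast therefore rests on run 2, with fl naive 2, fl EAE 4 and NestinCre EAE 4. Since fl naive 2 carried no Cre, the genotype and EAE cannot be told apart in the contrast of NestinCre EAE with naive. Among all members edgeR called no gene of 5043 in either EAE group (0%), with 329 genes at an unadjusted p under 0.05 for fl EAE and 216 for NestinCre EAE, and DESeq2 called none. Among members of at most 6000 UMIs NestinCre EAE differed from naive in 60 of 3814 genes (1.57%), 29 higher (0.76%) and 31 lower (0.813%), whereas DESeq2 called only Mctp1 there. Without the run in the model 82 genes were called, which included 23 of the 29 and 15 of the 31. Of the 29, all 4 NestinCre EAE libraries were above all 3 naive ones in 20 (69%; 6.37% of all genes tested), a description of genes that were chosen on this contrast. In 14 of the 29 fl naive 2, the naive library of run 2, had no UMI, so that their fitted changes depend on the prior count. The ratios below are therefore pooled over the libraries of a group across runs, while the p-values come from the fit with the run. Among all members 28 of the 29 could be tested and all 28 were positive, although none was called. Of the 31 lower genes all were tested there, of which 18 were negative and none was called (median -0.41). Both counts are descriptions, since the smaller set is part of all members and the genes were chosen in it. Leaving out 1 library at a time gave 47 to 76 calls, except for the run 2 libraries fl EAE 4 (15) and NestinCre EAE 4 (14). The fit could not be made without fl naive 2.

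Genes of the interferon response were among those that rose. Iigp1 was at 153, 64.6, 1158 and 408 CPM in fl EAE 1 to 4. It was at 1107, 1497, 1702 and 1536 CPM in NestinCre EAE 1 to 4, and at 187, 85.0 and 320.2 CPM in the naive libraries (fl naive 2, then fl naive 3, then NestinCre naive 2), an order of libraries kept below. All NestinCre EAE libraries were above all naive libraries, while fl EAE 1 and 2 lay within or below the naive range. The pooled ratio to naive was 6.83 (4.26 to 11.6) for NestinCre EAE (adjusted p = 0.0354, or 0.465 and 0.13 without NestinCre EAE 4 and fl EAE 4, and 0.0505 to 0.0524 without NestinCre EAE 1, 2 or 3) and 2.51 (1.47 to 4.48) for fl EAE (adjusted p = 0.823). Of 24 interferon-response genes tested 3 rose in NestinCre EAE (0.76% of all genes did), Samhd1 (adjusted p = 0.47 without NestinCre EAE 4) and Iigp1 among them, 22 were positive and the median was 1.51 against 0.10 over all genes. In fl EAE none was called, 22 were positive and the median was 1.15 against 0.04. Both EAE groups were compared with the same naive libraries. In the barcodes outside the BAM, microglia and phagocyte classes Iigp1 was also highest in NestinCre EAE, at far lower levels, with 0.299, 0.113, 7.33 and 0.359 CPM in fl EAE, 62.6, 32.0, 42.8 and 40.4 CPM in NestinCre EAE and 0.194, 0.162 and 0.295 CPM in naive.

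Genes of antigen presentation stood beside them. Cd74 was at 51.1, 64.6, 257 and 255 CPM in fl EAE, 180.2, 385, 378 and 869.7 CPM in NestinCre EAE and 0, 85.0 and 29.1 CPM in naive, where 3 UMIs in all were counted (NestinCre EAE to naive 15.3 (5.04 to 76.0), adjusted p = 0.0019). H2-Eb1, the beta chain of an MHC class II molecule, was at 51.1, 64.6, 0 and 102 CPM, 154, 214, 265 and 333 CPM and 0, 42.5 and 0 CPM in the same order (36 UMIs against 1, 22.7 (3.82 to 920.1), adjusted p = 0.0483). Both genes were in all NestinCre EAE libraries above every naive library. Ciita, the master regulator of class II transcription, rose as well (ratio 5.83 (2.09 to 22.5), adjusted p = 0.0166), so that 3 of 6 class II genes tested were called, against 0.76% of all genes, and none was called lower. Outside the 3 classes Cd74 was at 2.03, 1.19, 6.21 and 2.47 CPM, 32.2, 29.1, 34.4 and 26.2 CPM and 0.404, 0.790 and 0.745 CPM. The class I heavy chain H2-K1 was at 204, 258, 354 and 255 CPM, 335, 428, 454 and 869.7 CPM and 62.5, 85.0 and 58.2 CPM, with both EAE groups above naive in every library (NestinCre EAE ratio 8.61 (3.79 to 24.1), adjusted p = 0.0307). Nlrc5, which drives class I genes, rose with it (8.29 (3.65 to 23.3), adjusted p = 0.0478), which made 2 of 7 class I genes tested, against the same 0.76%. Each of these 5 calls was lost when certain single libraries were left out. Cd74 (adjusted p = 0.119) and H2-K1 (0.537) did so without NestinCre EAE 4, and Ciita without that library (0.0836) or fl EAE 4 (0.0858). Nlrc5 was not called without any 1 of the NestinCre EAE libraries, fl EAE 2 or fl EAE 4 (0.0503 to 0.286), nor H2-Eb1 without any 1 of the NestinCre EAE libraries or fl EAE 2, 3 or 4 (0.05001 to 0.33).

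Promoters of the genes that rose were searched for motifs of these pathways, and those of 2 genes of antigen presentation that held one upstream of the start are printed. RefSeq windows on GRCm38.p6 from 250 bases before to 50 after the start matched 20 of the 29 genes. The interferon-stimulated response element was searched as GAAANNGAAA and the Y box of class II promoters as CTGATTGG, on both strands. They occurred in 2 and 3 of the 20 windows (10% and 15%), against 3.44% and 4.10% of all 32851 windows. Another motif, TTCNNNGAA, was searched too and occurred in 3 (15%), against 8.30%. Upstream of the start the first pair was found in Ctss, H2-Eb1 and Cers6, the last with a Y box. A match is a description of letters and no evidence of binding. Below are the 250 bases before the start of Ctss, a protease that trims the invariant chain and whose gene rose (ratio 3.39 (2.11 to 5.69), adjusted p = 0.0186, or 0.312 and 0.066 without NestinCre EAE 4 and fl EAE 4), at chr3:95526536-95526785, plus strand, with the first motif in capitals, and of H2-Eb1 at chr17:34305617-34305866, plus strand, with the Y box in capitals, 5' to 3'.
Ctss: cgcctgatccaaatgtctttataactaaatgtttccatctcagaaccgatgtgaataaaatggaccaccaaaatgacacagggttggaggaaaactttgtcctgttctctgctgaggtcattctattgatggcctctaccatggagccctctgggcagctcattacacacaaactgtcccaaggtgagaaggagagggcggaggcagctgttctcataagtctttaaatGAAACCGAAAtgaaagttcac
H2-Eb1: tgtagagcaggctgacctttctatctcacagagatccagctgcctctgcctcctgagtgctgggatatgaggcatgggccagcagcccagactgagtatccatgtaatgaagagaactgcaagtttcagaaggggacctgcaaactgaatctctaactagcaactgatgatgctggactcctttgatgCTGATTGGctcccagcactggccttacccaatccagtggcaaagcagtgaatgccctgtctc

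Vcam1, Klra2, Pirb, Cd300lf and Fkbp5 were among the 29 as well. Vcam1 was at 102, 64.6, 129 and 306 CPM in fl EAE, 335, 556, 265 and 648 CPM in NestinCre EAE and 0, 0 and 87.3 CPM in naive, with no overlap between NestinCre EAE and naive (14.3 (4.68 to 70.9), adjusted p = 0.0028). Klra2 was at 51.1, 64.6, 161 and 638 CPM, 335, 385, 340.4 and 833 CPM and 0, 85.0 and 116 CPM, and was called in both EAE groups, with ratios of 7.98 (3.50 to 22.4) in NestinCre EAE (adjusted p = 0.00102) and 4.55 (1.88 to 13.3) in fl EAE (adjusted p = 0.0239). Its fitted log2 changes were 8.08 ± 1.52 and 6.92 ± 1.67, far above the pooled ratios, with no UMI in fl naive 2. The inhibitory receptors Pirb (6.30 (2.53 to 20.2), adjusted p = 0.0159, or 0.113 and 0.066 without NestinCre EAE 4 and fl EAE 4) and Cd300lf were higher too, the latter with 42 UMIs in NestinCre EAE and none in naive, at least 8.82-fold higher. Fkbp5, a glucocorticoid-responsive chaperone of steroid receptors, was at 511, 969, 386 and 1327 CPM, 1210.2, 727, 227 and 629 CPM and 62.5, 42.5 and 291 CPM. It rose in fl EAE (5.84 (3.25 to 11.4), adjusted p = 0.037) and NestinCre EAE (5.04 (2.82 to 9.78), adjusted p = 0.0168), and was the only one of 5 glucocorticoid-responsive genes tested that was called. Without fl EAE 4 neither Klra2 (adjusted p = 0.865) nor Fkbp5 (0.991) was called in fl EAE, and Fkbp5 was not called in NestinCre EAE (0.199). In fl EAE Fkbp5 was also lost without fl EAE 2 (0.064) or NestinCre EAE 2 (0.0609). In barcodes outside the BAM, microglia and phagocyte classes Fkbp5 was at 25.7 to 31.0 CPM in fl EAE, 25.6 to 83.6 CPM in NestinCre EAE and 14.9 to 19.5 CPM in naive. With few UMIs in naive, single libraries moved several pooled ratios by over 1.5 times. That of Ciita in fl EAE, 2.77, turned to 0.679 without fl EAE 4, while the others below kept their direction. For fl EAE that of Klra2 was 1.59 without fl EAE 4 and 2.93 and 8.43 without fl naive 2 and NestinCre naive 2, that of Fkbp5 3.87 without fl EAE 4 and 15.6 without NestinCre naive 2, and that of Iigp1 1.27 without fl EAE 3. For NestinCre EAE the ratios of Cd74, Ciita and Klra2 were 8.79, 3.55 and 5.24 without NestinCre EAE 4. Leaving out a naive library gave 9.87 (fl naive 2) to 33.9 (fl naive 3) for Cd74 and 3.75 to 17.2 for Ciita with the same pair. Without fl naive 2 and NestinCre naive 2 in turn, Klra2 had 5.14 and 14.8 and Pirb 4.06 and 19.5. Nlrc5 and Fkbp5 had 30.7 and 13.5 without NestinCre naive 2. Vcam1 had 9.19 without fl naive 2 and no UMI in naive without NestinCre naive 2, and H2-Eb1 had 14.6 and 14.01 without these libraries and no UMI in naive without fl naive 3.

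Mctp1 and Dab2 fell in NestinCre EAE. Mctp1 (chr13, 76532259 to 77181399), a calcium-binding membrane protein, was at 1328, 3875, 2927 and 2271 CPM in fl EAE, 798, 898, 1210.2 and 814 CPM in NestinCre EAE and 5374, 4038 and 3814 CPM in naive. Outside the BAM, microglia and phagocyte classes Mctp1 was at 826 to 1372 CPM. It was detected in 91.8%, 91.2% and 90.3% of barcodes over the limit of granule cell genes in naive, fl EAE and NestinCre EAE. Its level in BAMs was thus above that of the other barcodes in naive libraries and near it in NestinCre EAE, and the part of RNA from other cells was not tested. All NestinCre EAE libraries were below all naive and all fl EAE libraries, and the fall against naive was -2.73 ± 0.46 on the log2 scale (pooled ratio 0.203 (0.165 to 0.248), adjusted p = 0.000117). Within these members it was called under all 15 alternatives, DESeq2 included, whereas among all members it was not called (-2.66 ± 0.87, adjusted p = 0.998). In fl EAE the ratio was 0.570 (0.486 to 0.668) (adjusted p = 0.329). Dab2 was at 1788, 1937, 1865 and 2271 CPM, 1571, 1326, 1399 and 869.7 CPM and 4281, 2466 and 2504 CPM, with NestinCre EAE at 0.394 (0.325 to 0.478) of naive (adjusted p = 0.0128, or 0.475 without NestinCre EAE 4) and fl EAE at 0.644 (0.536 to 0.772) (adjusted p = 0.329). Slc40a1 was lower as well, at 0.252 (0.096 to 0.597) of naive (adjusted p = 0.0159), with 154, 0, 75.6 and 0 CPM in NestinCre EAE and 344, 128 and 175 CPM in naive, where the ranges overlapped. The ratio was 0.0865 without NestinCre EAE 1 and 0.405 without NestinCre EAE 4, and the gene was not called without NestinCre EAE 4 (0.318), fl EAE 3 (0.0751) or fl EAE 4 (0.066). Of 18 border macrophage genes tested these 2 were the ones that fell, against 0.813% of all genes, and none rose (median 0.44).

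Neuronal genes were among the others that fell. Of the neuronal list of 9 genes 8 were tested, of which 2 were called lower in NestinCre EAE (0.813% of all genes were) and none higher, with a median of -1.76. Of the 31, which were chosen on this contrast, 8 had all NestinCre EAE libraries below all naive ones (25.8%; 4.54% of all genes), and apart from Mctp1 and Dab2 these were Nlgn1, Dlg2, Ctnna3, Ank3, Mdga2 and Csmd3. In the same 143 members the neuronal list made up 0.647%, 0.387% and 0.297% of the UMIs in the 3 naive libraries, fl naive 2 first, against 0.122% to 0.414% in the 8 EAE libraries. The naive library of run 2, on which the contrast rests, was thus the one with the most neuronal UMIs. Of its 207, 110 were in 1 nucleus of 3487 UMIs with no UMI of the shared macrophage genes. That nucleus stayed in the fitted set. The part of these neuronal UMIs in the 31 calls was not tested. In fl EAE 12 of 3814 genes differed from naive (0.315%), Klra2 and Fkbp5 higher and 10 lower, among them the neuronal genes Kcnip4, Cdh18, Cntnap2 and Nrg3. That count was 38 without fl EAE 1 and 2 without fl EAE 4.

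Summed over whole lists, in members of at most 6000 UMIs, the 40 interferon-response genes made up 0.269% to 0.282% of the UMIs in naive libraries, 0.358% to 0.920% in fl EAE and 0.876% to 1.31% in NestinCre EAE. Both EAE groups were above naive and overlapped with each other. The 17 genes of MHC class I presentation made up 0.0728% to 0.0765%, 0.103% to 0.199% and 0.224% to 0.341% in the same order. The 10 of class II presentation made up 0.0595% to 0.0670%, 0.0255% to 0.0970% and 0.116% to 0.278%, with NestinCre EAE alone above naive in every library. The 20 chemokines and receptors made up 0.0262% to 0.0406%, 0.0511% to 0.153% and 0.120% to 0.159%, although none of the 6 tested passed the test in either EAE group. The 11 genes of iron and heme handling went the other way, with 0.2504% to 0.294% in naive, 0.204% to 0.244% in fl EAE and 0.170% to 0.2202% in NestinCre EAE, and Slc40a1 was the only one of 7 tested that was called. These sums are descriptions with no test. Only some of the 26 lists are summed here, and how many lists differ in this way is not given. The sums of other barcodes are not set beside them, and class II transcripts outside BAMs moved with the groups too.

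**Figure D4:**
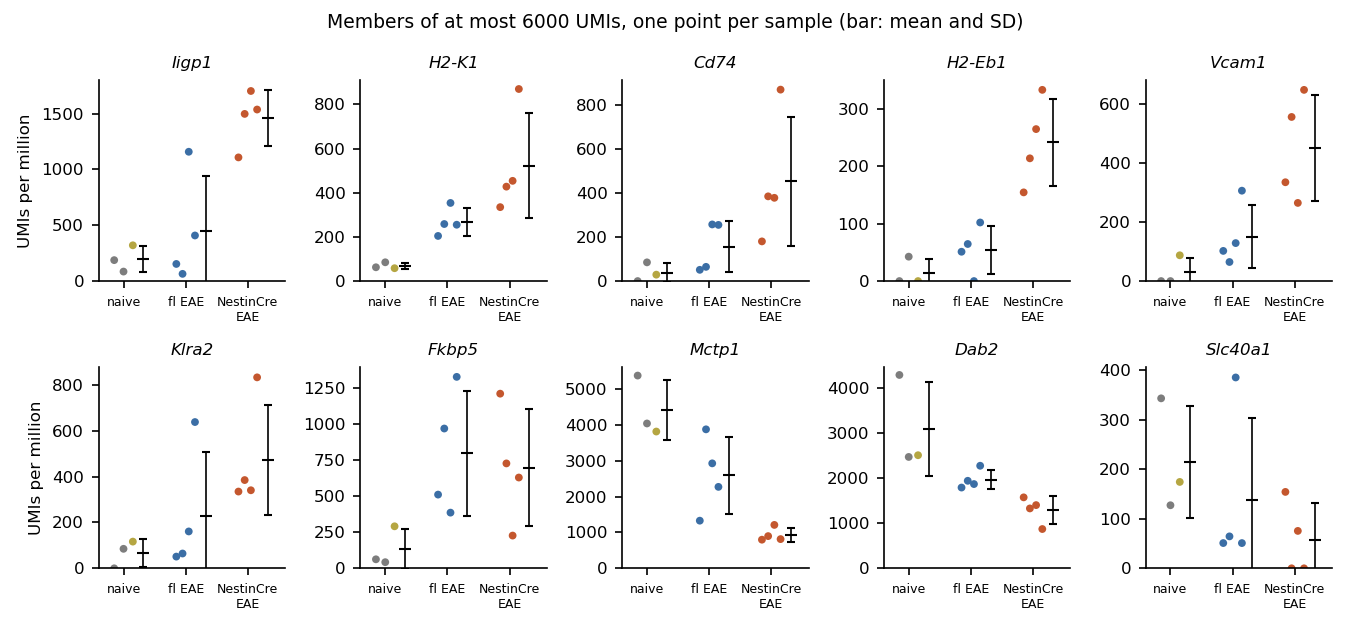
UMIs per 1000000 in the members of at most 6000 UMIs for 10 genes, 1 point per library in fl EAE (n = 4), NestinCre EAE (n = 4) and naive (n = 3), with the mean ± SD. Iigp1, H2-K1, Cd74, H2-Eb1, Vcam1 and Klra2 stand above naive in NestinCre EAE, while Mctp1 and Dab2 stand below it.

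Counted by nuclei, class II transcripts were in few naive and many EAE BAMs. At least 1 UMI of H2-Aa, H2-Ab1, H2-Eb1 or Cd74 was found in 1 of 17, 1 of 11 and 1 of 11 nuclei of the naive libraries. In fl EAE 1 to 4 it was found in 2 of 10, 2 of 9, 4 of 13 and 6 of 13 nuclei, and in NestinCre EAE 1 to 4 in 7 of 15, 9 of 11, 7 of 12 and 17 of 21. In the EAE groups the closest libraries were NestinCre EAE 1 (46.7%) and fl EAE 4 (46.2%). NestinCre EAE 4 supplied 21 of the 59 nuclei of its group. The NestinCre EAE libraries (67.8% of nuclei pooled) were all above fl EAE (31.1%), and these above naive (7.69%). Median depths were 2176, 2147 and 2116 UMIs, and with every nucleus thinned to 700 UMIs the shares were 42.4%, 15.6% and 2.56%. Microglia had 40.5%, 6.08% and 0.463%, or 16.1%, 2.03% and 0% thinned. Barcodes over the limit of granule cell genes, which should lack class II, had 16.02%, 1.85% and 0.337%, or 6.04%, 0.603% and 0.110% thinned, a level of background that moved with the groups too. These shares are descriptions and were not tested. Phagocytes were also most numerous in NestinCre EAE, and the part of any whose Ccr2 went undetected was not tested either. A UMI of Lyve1, Timd4 or Folr2, genes of the Lyve1-positive subset of BAMs, was found in 12 of 59 nuclei in NestinCre EAE, 14 of 45 in fl EAE and 7 of 39 in naive. Among the nuclei with class II transcripts it was found in 8 of 40, 4 of 14 and 1 of 3, which is a description.

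Between the genotypes in EAE, the values of BAMs moved with the large nuclei. Among all members 48 of 3569 genes differed (1.34%), 26 higher in NestinCre EAE (0.728%) and 22 lower (0.616%). The neuronal list made up 1.54%, 2.26%, 1.94% and 2.22% of the members' UMIs in replicates 1 to 4 of fl EAE, and 0.512%, 1.04%, 0.891% and 1.24% in those of NestinCre EAE, without overlap. The 15 shared macrophage genes tested were all higher in NestinCre EAE, none of them called, with a median of 1.14 against 0.02. Among the members of at most 6000 UMIs the neuronal share was 0.414%, 0.194%, 0.161% and 0.122% against 0.381%, 0.278%, 0.231% and 0.167%, and 1 of 2367 genes differed (0.0422%). That gene was Mctp1, lower in NestinCre EAE by -1.45 ± 0.29, adjusted p = 0.0489 (pooled ratio 0.355 (0.285 to 0.440)). It was not called without fl EAE 2 (adjusted p = 0.198), fl EAE 4 (0.254), NestinCre EAE 1 (0.172), 2 (0.0661) or 4 (0.304). DESeq2 called 1 gene there as well and 224 among all members. The 48 genes that edgeR called among all members became 142 without fl EAE 2, 182 without NestinCre EAE 3 and 5 to 16 without any other.

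The 26 genes that were higher among all members were positive in all 26 cases in the smaller set, with a median of 1.29, but none was called. The smaller set is part of the same nuclei and the genes were chosen on this contrast, so the shared sign is a description. Iigp1 went from 2.80 ± 0.57, adjusted p = 0.0357 to 1.56 ± 0.40, adjusted p = 0.174. Cd74 went from 2.26 ± 0.43, adjusted p = 0.0286 to 1.37 ± 0.46, adjusted p = 0.4, and H2-K1 from 1.86 ± 0.37, adjusted p = 0.0325 to 0.95 ± 0.39, adjusted p = 0.608. In the smaller set the ratio of NestinCre EAE to fl EAE was 2.72 (2.01 to 3.72) for Iigp1, 2.69 (1.62 to 4.67) for Cd74, 2.09 (1.35 to 3.31) for H2-K1 and 2.64 (1.57 to 4.65) for Vcam1, from pooled UMIs whose intervals leave out the spread between libraries. The groups overlapped for each of Iigp1, H2-K1, Cd74 and Vcam1, through fl EAE 3 for Iigp1 and H2-K1, fl EAE 3 and 4 for Cd74 and fl EAE 4 for Vcam1. Single libraries moved 3 of these ratios by over 1.5 times, that of Iigp1 to 5.36 without fl EAE 3, that of Cd74 to 1.54 without NestinCre EAE 4 and that of Vcam1 to 4.50 without fl EAE 4. Birc3, an inhibitor of cell death induced by NF-kappaB, was called among all members (adjusted p = 0.00996) and not in the smaller set (2.76 ± 0.72, adjusted p = 0.174). There it was at 0, 0, 32.2 and 51.0 CPM in fl EAE, which rest on few UMIs, and 232, 214, 340.4 and 129.5 CPM in NestinCre EAE.

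Next to the threshold in the smaller set was the ceramide synthase Cers6. It was at 307, 129, 482 and 332 CPM in fl EAE, 875, 1710.5, 946 and 851 CPM in NestinCre EAE and 93.7, 0 and 262 CPM in naive. Between the genotypes it was not called (1.67 ± 0.37, adjusted p = 0.0512). Of the 5 class II genes tested all were positive (median 1.37), of 18 interferon-response genes 16 (median 0.69), and of 13 border macrophage genes 3 (median -0.24), with none called in these lists. The median over all genes was 0.0117. Genes of a list were measured in the same libraries, so their signs are a description and no result between the genotypes. Dab2 had a ratio of 0.613 (0.499 to 0.752). Of the 22 genes lower among all members only 4 could be tested in the smaller set, 3 of them in the same direction. Cntnap5c, a neuronal adhesion molecule, had 96.6, 451, 275 and 86.5 CPM in fl EAE among all members (adjusted p = 0.0186) and no UMI in the smaller set.

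Whether the genotype effect in EAE differed between BAMs and microglia was tested as the interaction of class and genotype, in nuclei with at least 3 markers and at most 6000 UMIs. It passed for 4 of 5533 genes (0.0723%), with 1 to 4 when a library was left out, fewest without fl EAE 4. Among all members it passed for 62 of 13029 (0.476%). All 4 are induced by interferons. Iigp1 was at 0, 0, 110.05 and 0 CPM in microglia of fl EAE, 1473, 1581, 667 and 795 CPM in NestinCre EAE and 0, 0 and 7.78 CPM in naive, so that 5 of the 7 libraries outside NestinCre EAE had none, while in BAMs it was at 256, 72.6, 1187 and 393 CPM, 802, 1346, 2335 and 1648 CPM and 84.8, 0 and 366 CPM (interaction -3.55 ± 0.58, adjusted p = 4.07e-06, with the sign of a smaller genotype effect in BAMs). Gm4951, an interferon-inducible GTPase, was at 0, 51.5, 136 and 22.1 CPM, 991, 989.8, 847 and 536 CPM and 14.5, 0 and 31.1 CPM in microglia. In BAMs it was at 341, 581, 1051 and 1349 CPM, 1308, 1603, 1868 and 1382 CPM and 382, 514 and 399.7 CPM (-3.01 ± 0.50, adjusted p = 4.55e-06, or 0.0985 without fl EAE 4). The microglia were thus low in fl EAE and high in NestinCre EAE, whereas the BAMs of both groups overlapped. The interaction is on the log2 scale and compares fold changes, which are large from the low fl EAE levels of microglia. A smaller effect in BAMs is therefore one of fold change, and differences in CPM were not tested.

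Ifi207 was called as well (-2.94 ± 0.61, adjusted p = 0.00289). It was at 512, 436, 712 and 478 CPM in BAMs of fl EAE and 338, 385, 292 and 606 CPM in those of NestinCre EAE, and at 55.7, 17.2, 45.3 and 33.1 CPM and 304, 157, 322 and 188 CPM in microglia. The guanylate-binding protein gene Gbp4 had no UMI in naive BAMs or naive microglia, was at 0, 145, 407 and 56.2 CPM in BAMs of fl EAE and at 169, 128, 175 and 218 CPM in those of NestinCre EAE, and at 0, 0, 25.9 and 0 CPM and 179, 229, 195 and 151 CPM in microglia (adjusted p = 0.0169). Among the 143 members Gbp4 was, against naive, at least 6.51-fold higher in NestinCre EAE and at least 4.55-fold higher in fl EAE. Iigp1 passed under 11 of 11 alternatives, Gm4951 under 10 of 11, Ifi207 under 6 of 11 and Gbp4 under 2 of 10. Ifi207 was lost without fl EAE 3 (adjusted p = 0.285), fl EAE 4 (0.0884) or NestinCre EAE 1 (0.115) or 3 (0.118), and Gbp4 without fl EAE 2, 3 or 4 or NestinCre EAE 1, 2 or 3 (0.0502 to 1). Over the 29 interferon-response genes tested the median interaction was -1.42 against -0.03 over all genes, and 4 were positive.

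**Figure D5:**
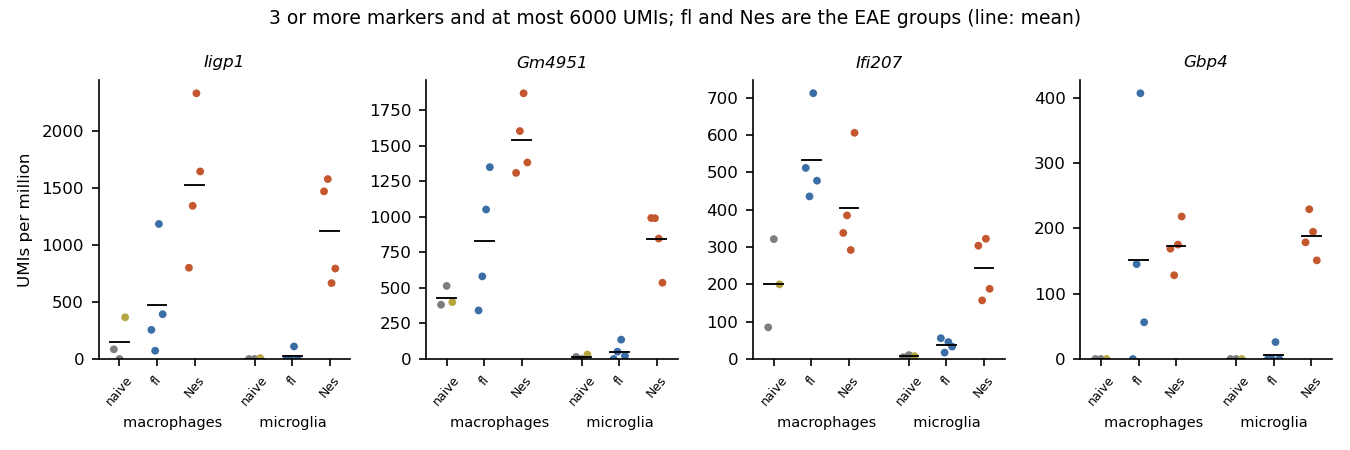
UMIs per 1000000 of Iigp1, Gm4951, Ifi207 and Gbp4 in BAMs and in microglia with at least 3 markers and at most 6000 UMIs, 1 point per library in fl EAE (n = 4), NestinCre EAE (n = 4) and naive (n = 3), with a line at the mean. In microglia all libraries outside NestinCre EAE are at 136 or less, and in BAMs the fl EAE and NestinCre EAE libraries overlap for all 4 genes.

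The receptor that had been deleted was hardly seen in BAMs. Among all members Il12rb1 had 4 UMIs and Il12rb2 2, and with at most 6000 UMIs the 2 UMIs of Il12rb1 and the 1 of Il12rb2 were in NestinCre EAE 1. In the barcodes outside the 3 classes Il12rb2 was at 8.24 to 17.2 CPM and Il12rb1 at 0.730 to 6.88 CPM. Il12a, Il12b, Il23a and Il23r had no UMI in any member. These counts are too low to compare the genotypes. Il12rb2 counts from the 3' end of the transcript do not show whether the floxed part is present.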

How the data were processed

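Per the labels, the file headers and the study's methods, the authors sorted nuclei on Hoechst, prepared 10x 3' libraries and ran Cell Ranger on GRCm39 with intronic reads counted. The file headers name version 7.0.0 in run 1 and 6.0.2 in runs 2 and 3, whereas the methods name 6.0.2 alone. Pooled ratios of EAE to naive compare libraries across these versions. The deposited matrices hold UMI counts per gene and barcode, with no normalization.

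Here members, microglia and phagocytes were picked by the stated rules, with 0 columns of samples outside the series. The members and the 26 gene lists were chosen with earlier results of these data known. UMIs were summed per library and class (at least 5 nuclei), and edgeR 4.0.16 (R 4.3.3) was used for the tests between classes and groups (TMM, filterByExpr with min.count 3 and min.total.count 15, quasi-likelihood), with Benjamini-Hochberg adjustment over all genes tested and a threshold of 0.05. Run was a covariate between groups, and library a block between classes. Fold changes are log2 values ± SE. Shares were compared by exact permutation, with exact binomial intervals at the 95% level. DESeq2 1.42.0, other filters, 3 or more markers, at most 6000 UMIs, Scrublet scores (scanpy 1.11.5), 200 genes, and each library left out were alternatives. The set of at most 6000 UMIs was planned as an alternative; its own repeats, and its combination with 3 or more markers, were added after seeing the data. Named genes were those of the rule and the lists, both receptor genes, and up to 12 called genes per direction with the largest change and at least 20 UMIs. Some genes counted among those tested are not reported here by name. The tests were tried on simulated data. No doublets were removed, other than in the Scrublet alternative, which left out the highest 0.8% per 1000 barcodes. Intervals of ratios and bounds against 0 (3 counts over the group) cover counting error only.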

Additional observations from a re-analysis of the deposited data

Results flagged for a closer look

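Single libraries stood apart from the other 3 of their EAE group in 13 of 96 groups tested. Chance gives about 1 in 20 for independent values, which genes of the same library are not. All values are CPM in members of at most 6000 UMIs. There fl EAE 1 held 19575 UMIs, so its lowest values below rest on a few UMIs. NestinCre EAE 4 was the highest for Klra2 (833) and Arhgap24 (703), NestinCre EAE 2 for Cers6 (1710.5), and NestinCre EAE 1 for the neuronal genes Adgrl3 (541) and Kcnip4 (1519). Of the 148 UMIs of the neuronal list in NestinCre EAE 1, 78 were in 1 nucleus of 2039 UMIs. In the other genotype fl EAE 1 was the highest for 6 genes of neurons or cell adhesion, Ctnna3 (919.5), Lsamp (919.5), Grm7 (2401), Enox1 (307), Opcml (204) and Nlgn1 (153). Slc40a1 was highest in fl EAE 3 (386) and Nedd9 in fl EAE 4 (153).

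The genotype effect in EAE differed between BAMs and microglia, by the interaction on the log2 scale, for the interferon-induced genes Iigp1 (-3.55), Gm4951 (-3.01), Ifi207 (-2.94) and Gbp4 (-4.10) among nuclei with at least 3 markers and at most 6000 UMIs. The fl EAE levels in microglia were low, which makes fold changes there large. Gbp4 did not pass under most of the alternatives, nor Ifi207 under several.

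Among all members and all microglia it differed for 62 genes, of which 15 further ones are named here and include neuronal genes. The 24 members over 6000 UMIs supplied 58.2% of the BAM UMIs there. The log2 interaction was negative for Tox (-9.24), Fras1 (-8.91), Gm37795 (-8.44), Hcrtr2 (-8.21), Adgra1 (-8.09), Prex2 (-8.07), Csgalnact1 (-5.86), Cntnap5c (-5.23), A830018L16Rik (-4.80), Cntnap5b (-4.69), L3mbtl4 (-4.34) and Galnt16 (-4.06). It was positive for Ccbe1 (9.13), Adarb2 (2.82) and Sash1 (1.68).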

How the results depend on the processing

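Across the alternatives 2093 of 2571 values of single genes kept direction and side of the threshold, 441 fell short of it, 31 newly passed it and 6 turned in sign. The 6 were Pex5l between NestinCre EAE and naive among all members with high Scrublet scores left out (5.11) and, in the interaction among all members, A830018L16Rik (2.38), Adarb2 (-0.36) and Csgalnact1 (0.996) at 6000 UMIs or less, and Adarb2 (-1.75) and Sash1 (-0.38) with 3 or more markers as well. The cause was not tested.

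Counts of genes called moved as follows. Between genotypes among all members the 48 became 224 with DESeq2, 282 without a filter, 0 with 3 or more markers (54 at an unadjusted p under 0.05), 1 at 6000 UMIs or less, 2 with both and 5 in run 1 alone, and 5 to 182 with 1 library left out. At 6000 UMIs or less the 1 became 3 at a minimum count of 10, 14 without a filter, 2 with 3 or more markers, 0 in run 1 alone (132 unadjusted), 3 with no run term, and 0 to 6. Between fl EAE and naive the 0 became 2 without a filter, 12 at 6000 UMIs or less and 1 with both, and stayed 0 with each library left out (0 to 0). At 6000 UMIs or less the 12 became 1 with DESeq2, 6 at a minimum count of 10, 1 with 3 or more markers, 7 with no run term, and 2 to 38. Between NestinCre EAE and naive the 0 became 4 without a filter, 60 at 6000 UMIs or less, 18 with both and 5 with no run term. At 6000 UMIs or less the 60 became 1 with DESeq2, 18 at a minimum count of 10, 18 with 3 or more markers, and 14 to 76. Against microglia the 2085 became 650 with 3 or more markers, 1389 at 6000 UMIs or less and 692 with both, the 692 becoming 371 at a minimum count of 10 and 1412 without a filter, and 604 to 678. Against phagocytes the 125 became 77 at a minimum count of 10, 194 with 3 or more markers, 378 at 6000 UMIs or less, 290 with both, and 23 to 154, and the 378 became 214 with DESeq2, 205 at a minimum count of 10, 247 without a filter, and 238 to 335. For the interaction the 62 became 14 with DESeq2, 13 at a minimum count of 10, 6 with 3 or more markers, 11 at 6000 UMIs or less, 4 with both, and 27 to 94, and the 4 became 2 with DESeq2 and 1 to 4. BAMs per 100 microglia had a ratio of 1.16 in run 1 alone, 0.797 at 6000 UMIs or less, 0.711 with 3 or more markers and 0.673 with both. With 1 library left out the share had ratios of 0.878 to 1.16 between EAE and naive and 1.19 to 1.42 between genotypes.

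With the replicate number as a block between the EAE groups, 40 genes were called among all members and 11 at 6000 UMIs or less, and the share gave a ratio of 1.28 (edgeR on nucleus counts). Deviations of libraries of the same number correlated at 0.0404, 0.0975, 0.0532 and 0.210 among all members, so the numbers were not taken as a pairing.

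Not run were the EAE to naive gene tests without fl naive 2, which could not be fitted. With 10 to 26 members per library, genes of low count could not be compared.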
